A study of Mus musculus with 12 samples.

Results

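The interleukin-1 and interleukin-18 system is described here through 10 genes measured in mouse alveolar macrophages lacking Bach1, Bach2 or both. The genes are the ligands Il1a, Il1b and Il18, the soluble inhibitors Il1rn and Il18bp, the receptors Il1r1, Il1rap and Il1r2, and the inflammasome genes Nlrp3 and Casp1. A gene was included when the accession of an array probe names it. This found 12 probes for the 10 genes, and the brightest probe stood for each gene. All 10 genes passed the background filter, which asks for signal well above background in all 3 mice of some genotype, and they are 10 of 13809 named genes and of 23118 genes or transcripts tested in all. Each value is a log2 processed signal minus its own array's 75th percentile. Such values compare 1 gene between mice and do not rank different genes, because probes differ in brightness.

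The cells were collected by bronchoalveolar lavage from female C57BL/6 mice aged 8 to 9 weeks and isolated by flow sorting. There were 3 mice in each of 4 genotypes: Bach1 KO, Bach2 KO, Bach1/Bach2 double knockout (DKO) and wild type (WT). All mice shared the strain and no treatment is named. The labels do not say whether the genes were deleted in macrophages alone or in the whole animal, and the sources used here do not give how the alleles were made. The RNA of each mouse was amplified, labelled with Cy3 and hybridised to 1 single-colour Agilent array.

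Interleukin-1 signals begin when IL-1α or IL-1β binds IL1R1, which then recruits the accessory chain encoded by Il1rap and the adaptor MYD88. IL-1α is active as a precursor released by damaged cells, while IL-1β and IL-18 are made as precursors that caspase-1 cleaves inside an inflammasome such as the one built on NLRP3. The system carries its own brakes, namely the receptor antagonist IL-1RN, the decoy receptor IL1R2 and the soluble IL-18 binding protein. BACH1 and BACH2 are related repressors that pair with small MAF proteins at DNA elements resembling the sites of the activator AP-1.

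Each array has 59305 spots that are not controls, of which 45.2% to 72.4% were well above background and 0 were saturated. Arrays of one genotype correlated at 0.94 to 0.988. WT replicate 3 and Bach1 KO replicate 3 stood apart from the other 10 arrays on the third principal component (scores of -123 and 75.9, against -22.6 to 22.3), so calls that depend on them are given with and without them. Slide 1 carried Bach2 KO replicates 1 and 2 with every Bach1 KO and WT mouse, and slide 2 carried Bach2 KO replicate 3. The 3 DKO mice were together on slide 3, with a later scan day, so DKO genotype, slide and scan day cannot be told apart. The Bach1 probe read 2.40, 2.55 and 2.53 in Bach1 KO, 2.59, 3.13 and 1.72 in DKO, and 3.72, 4.28 and 3.77 in WT. Its difference from WT was -1.43 ± 0.32 in Bach1 KO (adjusted p = 0.306) and -1.44 ± 0.32 in DKO (adjusted p = 0.0108). Neither of the 2 Bach2 probes passed the test in Bach2 KO against WT (adjusted p = 0.876 and 0.899). The first was above background on 0 arrays of every genotype. The second read -5.29, -3.72 and -5.29 in Bach2 KO and -2.42, -2.18 and -8.13 in WT, where the lowest value is replicate 3. Its test without that array is not reported here. The arrays therefore do not settle the Bach2 labels, and genotypes are used as labelled.

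The sorted cells carried alveolar macrophage markers in every genotype, but at different levels. The summed linear level of 14 such markers was 1210.2 to 1989 in Bach1 KO, 492 to 699.7 in Bach2 KO, 421 to 622 in DKO and 1695 to 2069.9 in WT, with 13 or 14 of them above background on every array. Their defining surface lectin gene, Siglecf, averaged 5.26 in Bach1 KO, -0.59 in Bach2 KO, -2.56 in DKO and 5.74 in WT. Of the 14 markers, 12 fell in Bach2 KO and 10 in DKO against WT. For this and the marker counts below, the shares over all genes were 12.4% higher and 24.7% lower in Bach2 KO. In DKO they were 10.6% and 16.6%. Markers of other cells moved with these genotypes too. Of 7 monocyte markers, 3 rose and 1 fell in Bach2 KO and 4 rose and 1 fell in DKO against WT. Treml4 was lower in both than in WT, and F13a1 and Plac8 higher. Of 6 dendritic cell markers that passed the filter, 4 rose and 0 fell in both. Some of these passed it only through genotypes lacking Bach2, which to some extent fixed their direction. The sums weigh the brightest markers most: Fn1 for monocytes, Csf3r for neutrophils and, in both mutants, Ccr7 for dendritic cells. The sum of 7 dendritic cell markers was 0.345 to 2.06 in Bach1 KO, 31.8 to 43.7 in Bach2 KO, 16.8 to 44.8 in DKO and 0.289 to 1.65 in WT, and that of 7 monocyte markers was 47.8 to 64.4, 79.3 to 103, 114 to 117 and 58.0 to 89.2 in the same order. The sum of 11 neutrophil markers was lower in every Bach2 KO array (52.1 to 69.0) than in any WT array (99.7 to 142), and it was 78.5 to 117 in DKO and 90.8 to 141 in Bach1 KO. Of the 11 neutrophil markers, 8 to 10 were above background on each array, and of the 9 that passed the background filter 1 rose and 3 fell in Bach2 KO and 1 rose and 2 fell in DKO against WT. S100a9 averaged -3.22 in Bach2 KO and -1.13 in DKO, against -6.13 in WT, where 1 of 3 arrays was above background. Mmp8 averaged -1.61 in Bach2 KO and 0.33 in DKO, against 3.25 in WT, and Cxcr2 -4.53 and -5.18, against -1.53. For Ltf the means were -3.81 and -0.80, against -0.45, and for S100a8 0.13 and 2.71, against 1.67. The brightest marker of this list, Csf3r, averaged 5.74 and 6.09, against 6.57. The granule gene Ngp was above background on 0 of 12 arrays. The 4 mast cell and basophil markers were above background on 0 arrays. The part of these marker shifts in the results below was not tested. In such bulk samples a smaller number of cells of a type and less RNA per cell cannot be told apart.

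Mice labelled as lacking Bach2 had less Il18 and more Il1a and IL-1 receptor RNA than WT mice. In Bach2 KO against WT, Il18 was 55.9-fold lower, Il1r1 was 27.7-fold higher and Il1a was 8.68-fold higher. Il1r2, Il1rap and Il18bp also rose and Casp1 fell, which makes 5 of the 10 genes higher, 2 lower and 3 that did not pass. The 5 became 3 without WT replicate 3 or any single Bach2 KO mouse, since Il1r2 and Il1rap no longer passed, and 4 without WT replicate 1 or 2. Over all genes tested, 12.4% were higher and 24.7% lower, 37.1% in all. The mice of both groups did not overlap for 6 of the 10 genes, beside 50.5% of all genes. The median difference was 0.37 over the 10 genes and -0.30 over all genes. In DKO against WT, 4 of the 10 rose and 2 fell, beside 10.6% higher and 16.6% lower among all genes (27.2% in all), with medians of 0.07 and -0.28. Here 9 of the 10 did not overlap, beside 44.9%. The 4 higher genes became 2 without any single DKO mouse and 3 without WT replicate 1 or 2. Without WT replicate 3 there were also 3, since Il1r2 and Il1rap no longer passed and Il18bp newly passed. Both comparisons use the same WT arrays. In Bach1 KO against WT, 0 of the 10 passed limma's test and 1 had an unadjusted p under 0.05, beside 0.0606% and 5.31% of all genes.

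**Figure D1:**
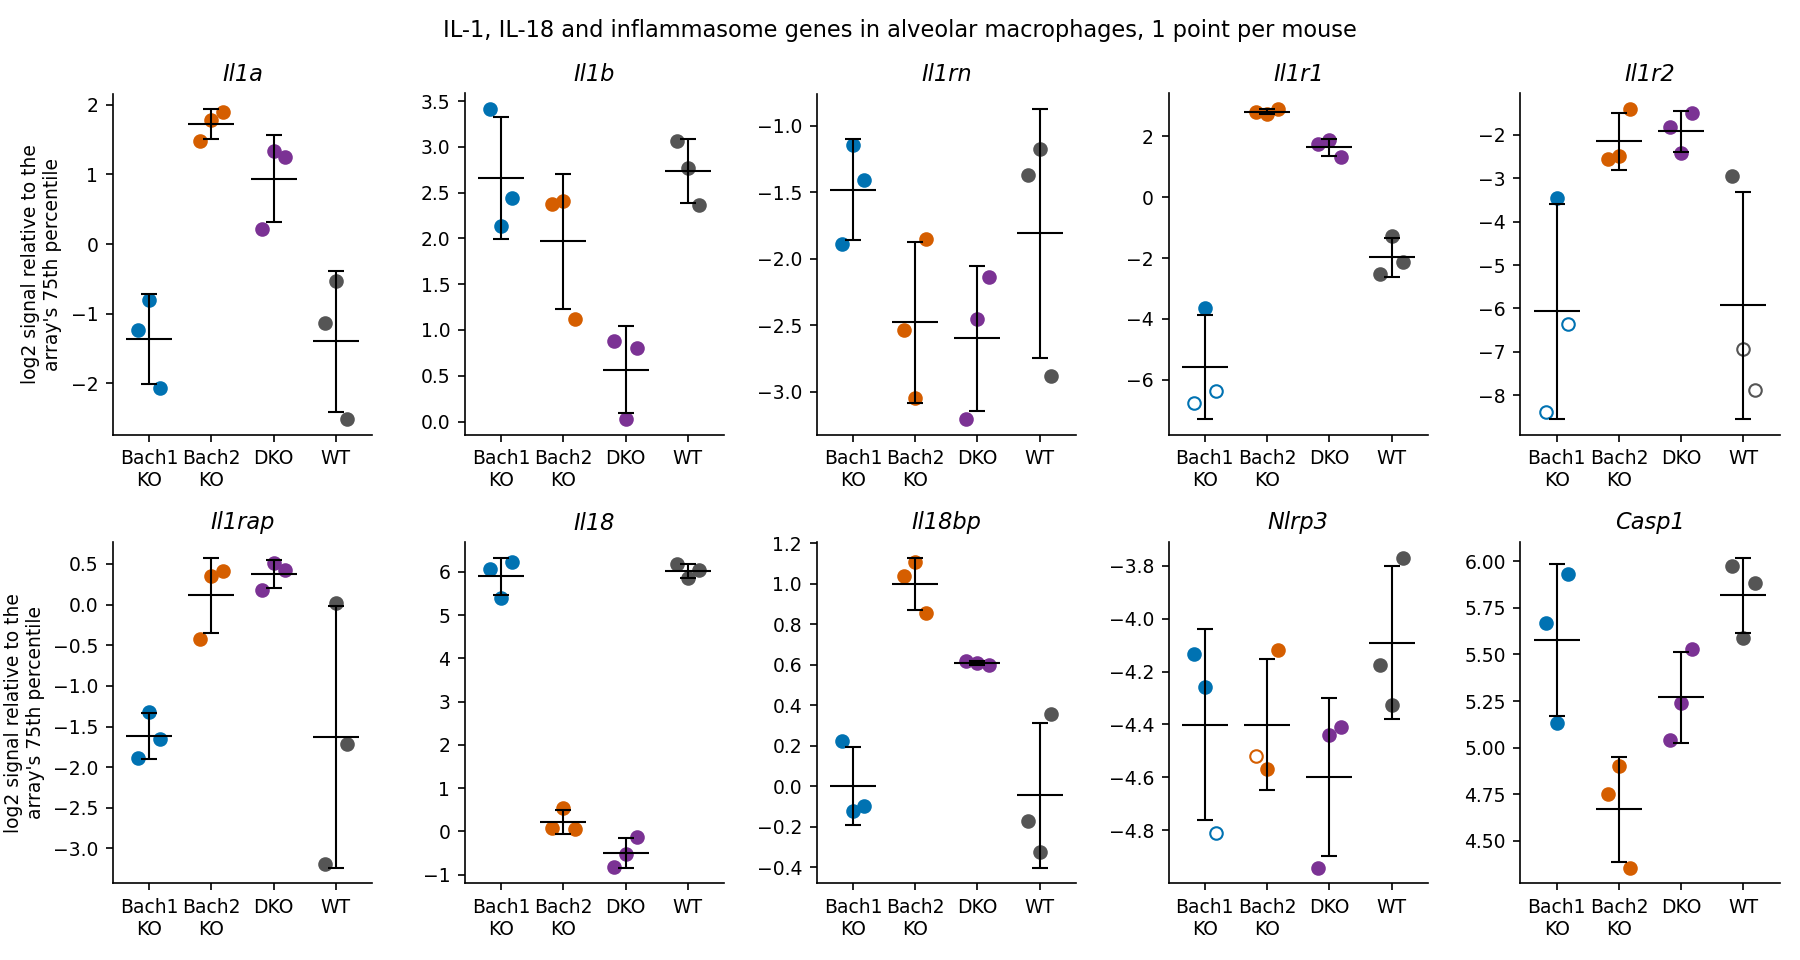
Log2 signal relative to the array's 75th percentile for each of the 10 genes, with 1 point per mouse, the mean as a long bar and ± SD as whiskers (n = 3 per genotype). Each panel has its own vertical scale, and open points are arrays on which the probe was not well above background. Il18 sits between -0.82 and 0.53 in the 6 Bach2 KO and DKO mice and between 5.41 and 6.23 in the 6 Bach1 KO and WT mice.

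Promoter sequences are shown first for 3 genes that represent the range of responses: Il1a, which rose in both mutants lacking Bach2, Il1rn, which passed in neither, and Il18, which fell in both. Each runs from 250 bases before to 50 bases after an annotated transcription start, 5′ to 3′ in the direction of transcription, from RefSeq on assembly GRCm38.p6. The Il1a start is the 1 start that the promoter table lists, and it lies inside the gene's annotated span, downstream of the outermost 5′ end. Capitals mark matches to TGANTCA, the core shared by AP-1 and BACH elements, which reads the same on both strands.
Il1a, chr2:129309923-129310222, minus strand: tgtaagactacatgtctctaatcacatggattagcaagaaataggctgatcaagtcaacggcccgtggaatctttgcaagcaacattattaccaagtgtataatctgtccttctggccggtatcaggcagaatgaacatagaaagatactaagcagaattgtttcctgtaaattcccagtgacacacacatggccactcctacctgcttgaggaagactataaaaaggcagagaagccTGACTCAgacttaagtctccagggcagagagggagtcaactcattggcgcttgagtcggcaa
Il1rn, first annotated start, chr2:24336610-24336909, plus strand: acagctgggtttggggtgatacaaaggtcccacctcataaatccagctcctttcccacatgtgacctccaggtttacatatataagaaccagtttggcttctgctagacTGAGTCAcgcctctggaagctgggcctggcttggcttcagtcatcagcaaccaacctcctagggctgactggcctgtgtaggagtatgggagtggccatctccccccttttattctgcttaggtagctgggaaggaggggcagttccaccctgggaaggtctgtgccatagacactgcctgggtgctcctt
Il18, chr9:50554450-50554749, plus strand: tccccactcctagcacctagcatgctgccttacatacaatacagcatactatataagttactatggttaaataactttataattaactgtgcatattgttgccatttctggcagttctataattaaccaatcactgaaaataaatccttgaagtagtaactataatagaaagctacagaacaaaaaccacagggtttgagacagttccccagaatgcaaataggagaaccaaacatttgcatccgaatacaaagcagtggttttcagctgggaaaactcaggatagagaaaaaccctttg
The Il1a promoter holds TGACTCA with its first base at -12, and the Il1rn promoter holds TGAGTCA with its first base at -141, where -1 is the base before the start. These were the 2 of 14 annotated promoters of the 10 genes with the motif, which is found in 7.81% of 32851 mouse promoters of the same length. The promoters shown therefore include both with a match. The other annotated Il1rn starts, which are not shown, hold none. A match is a description of letters in these windows and was not tied to binding in these cells.

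Il1a encodes the alarmin form of interleukin-1. Its value was -1.23, -0.80 and -2.07 in Bach1 KO, 1.48, 1.79 and 1.90 in Bach2 KO, 0.22, 1.34 and 1.25 in DKO, and -1.14, -0.54 and -2.51 in WT. Every mouse lacking Bach2 lay above every mouse that kept it, and Bach1 KO overlapped WT. The difference from WT was 3.12 ± 0.51 in Bach2 KO (8.68-fold, adjusted p = 0.000856) and 2.33 ± 0.51 in DKO (5.03-fold, adjusted p = 0.0057). Without WT replicate 3 and Bach1 KO replicate 3 these were 2.56 (adjusted p = 0.00114) and 1.77 (adjusted p = 0.00866). All 3 DKO values lay below the 3 Bach2 KO values, but that difference of -0.79 ± 0.51 did not pass (adjusted p = 0.406).

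Il18 encodes the interferon-γ inducing cytokine that is stored as a precursor in resting macrophages. Its value was 6.07, 5.41 and 6.23 in Bach1 KO, 0.08, 0.53 and 0.05 in Bach2 KO, -0.82, -0.53 and -0.14 in DKO, and 6.18, 5.85 and 6.04 in WT. The 2 sets of mice, with and without Bach2, were separated by a gap far wider than the spread within either. In DKO Il18 was 91.8-fold below WT (-6.52 ± 0.27, adjusted p = 3.26e-08) and 84.2-fold below Bach1 KO (-6.40 ± 0.27, adjusted p = 4.05e-08). Each DKO mouse also lay below each Bach2 KO mouse, by -0.72 ± 0.27 on average, with an unadjusted p of 0.0234 and an adjusted p of 0.163. The alveolar macrophage marker sums given above fell with Il18 in the same mice. Among the 2 Bach2 KO and 3 WT arrays on slide 1, the difference was -5.72 (adjusted p = 2.41e-05).

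Il1b, which encodes the secreted form of interleukin-1, was measured by 10 spots of 1 probe. It read 3.41, 2.14 and 2.44 in Bach1 KO, 2.38, 2.41 and 1.12 in Bach2 KO, 0.88, 0.03 and 0.80 in DKO, and 3.06, 2.77 and 2.37 in WT. The DKO mice were the lowest of all 12, and 2 of 3 Bach2 KO mice lay at the level of the lowest WT mouse. Il1b fell in DKO against WT by 2.17 on the log2 scale (SE 0.43, 4.49-fold, adjusted p = 0.0031). In Bach2 KO the difference was -0.77 ± 0.43 (adjusted p = 0.184), and between DKO and Bach2 KO it was -1.40 ± 0.43 (adjusted p = 0.0965). A departure of DKO from the sum of both single-mutant differences was estimated at -1.33 ± 0.61 and did not pass (unadjusted p = 0.0501, adjusted p = 0.338). The order of means was WT, Bach1 KO, Bach2 KO and DKO. Bach1 KO and WT, like DKO and Bach2 KO, did not differ past the threshold, and Bach2 KO was not tested against Bach1 KO.

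The inhibitors did not share a direction. Il18bp, which encodes the secreted protein that captures IL-18, read 0.22, -0.12 and -0.10 in Bach1 KO, 1.04, 1.11 and 0.86 in Bach2 KO, 0.62, 0.61 and 0.60 in DKO, and -0.17, -0.32 and 0.36 in WT. Both genotypes lacking Bach2 lay above all WT mice. The rise was 1.04 ± 0.25 in Bach2 KO (2.06-fold, adjusted p = 0.00763), while in DKO the difference of 0.65 ± 0.25 did not pass (adjusted p = 0.0733). Leaving out WT replicate 3, the highest WT mouse, gave 0.86 for DKO with an adjusted p of 0.0273. Il1rn, which encodes the receptor antagonist, read -1.89, -1.14 and -1.41 in Bach1 KO, -2.54, -3.05 and -1.85 in Bach2 KO, -3.21, -2.45 and -2.14 in DKO, and -1.37, -1.17 and -2.88 in WT. WT replicate 3 lay among the mice lacking Bach2, apart from the other 2 WT mice. The differences from WT were -0.67 ± 0.50 in Bach2 KO (adjusted p = 0.32) and -0.79 ± 0.50 in DKO (adjusted p = 0.26), and neither passed.

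Il1r1, the signalling receptor gene, showed the widest range among the receptors. It read -6.78, -3.64 and -6.36 in Bach1 KO, 2.79, 2.75 and 2.90 in Bach2 KO, 1.74, 1.87 and 1.32 in DKO, and -2.52, -1.27 and -2.14 in WT. No 2 genotypes overlapped, and the order of means was Bach2 KO, DKO, WT and Bach1 KO. Il1r1 rose by 4.79 ± 0.67 in Bach2 KO (27.7-fold, adjusted p = 0.000272) and by 3.62 ± 0.67 in DKO (12.3-fold, adjusted p = 0.00186). Of the differences between neighbours in that order, only DKO against WT passed, while DKO against Bach2 KO was -1.17 ± 0.67 (adjusted p = 0.339) and Bach1 KO against WT was -3.62 ± 0.67 (unadjusted p = 0.00017, adjusted p = 0.109).

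In Bach1 KO the Il1r1 probe was well above background on 1 of 3 arrays, replicate 2, so its mean of -5.59 ± 1.71 includes 2 values at background. Without that replicate the difference from WT was -4.59 with an adjusted p of 0.000925, and both remaining Bach1 KO values were not well above background. It was the single gene of the 10 whose Bach1 KO and WT mice did not overlap, beside 6.79% of all genes. The other 9 differences between Bach1 KO and WT lay between -0.31 and 0.33. Against Bach1 KO, DKO was higher (fitted difference 7.23 ± 0.67, adjusted p = 1e-05), and the size of that difference rests on the same 2 Bach1 KO values at background. The DKO departure from the sum of the single-mutant differences was 2.45 ± 0.94 (adjusted p = 0.272), and it passed only without Bach1 KO replicate 2 (3.42, adjusted p = 0.0179). For this departure 0 of the 10 genes passed limma's test and 2 (Il1r1 and Casp1) had an unadjusted p under 0.05, beside 0.675% and 14.8% of all genes.

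Il1rap encodes the accessory chain that the IL-1 receptor shares with the receptors for IL-33 and IL-36. Its brightest probe read -1.89, -1.32 and -1.65 in Bach1 KO, -0.42, 0.35 and 0.41 in Bach2 KO, 0.18, 0.51 and 0.43 in DKO, and -3.19, 0.03 and -1.71 in WT. The 3 WT mice were widely spread, and WT replicate 2 lay within the Bach2 KO range. The rise was 1.74 ± 0.62 in Bach2 KO (3.34-fold, adjusted p = 0.0458) and 2.003 ± 0.62 in DKO (4.01-fold, adjusted p = 0.0329). Without WT replicate 1, the lowest WT mouse, neither passed (0.96, adjusted p = 0.163, and 1.22, adjusted p = 0.101). Leaving out WT replicate 3 or any single mouse of the mutant genotype also ended both calls, with adjusted p of 0.0554 to 0.129 in Bach2 KO and 0.0703 to 0.0887 in DKO. They likewise did not pass without WT replicate 3 and Bach1 KO replicate 3 (1.70, adjusted p = 0.112, and 1.96, adjusted p = 0.0904), or with the 2 compared groups fitted alone (adjusted p = 0.122 and 0.0902).

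Il1r2, the decoy receptor gene, was detected in all 6 mice lacking Bach2 and in 2 of the other 6. It therefore passed the background filter only through Bach2 KO and DKO, and its direction against WT was to some extent fixed by the filter. It read -8.40, -3.46 and -6.35 in Bach1 KO, -2.56, -2.49 and -1.41 in Bach2 KO, -1.83, -2.43 and -1.51 in DKO, and -2.95, -6.93 and -7.88 in WT. The probe was well above background on 1 Bach1 KO array (replicate 2), 3 Bach2 KO arrays, 3 DKO arrays and 1 WT array (replicate 1). The WT array with signal lay just below the lowest Bach2 KO array, so the size of the rise rests on WT values at background. That rise was 3.77 ± 1.28 in Bach2 KO (adjusted p = 0.0376) and 4.004 ± 1.28 in DKO (adjusted p = 0.0374). Neither passed without WT replicate 3 (2.79, adjusted p = 0.143, and 3.02, adjusted p = 0.14), without WT replicate 2 (adjusted p = 0.0942 and 0.0874), or without any single mouse of the mutant genotype (adjusted p of 0.0673 to 0.116 in Bach2 KO and 0.0699 to 0.0948 in DKO), so these calls needed nearly every array. Without WT replicate 3 and Bach1 KO replicate 3 together, adjusted p was 0.153 and 0.151, and on slide 1 alone the Bach2 KO difference was 3.40 (adjusted p = 0.179). Taking slide as a random block left the calls of all 10 genes in Bach2 KO against WT as they were.

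**Figure D2:**
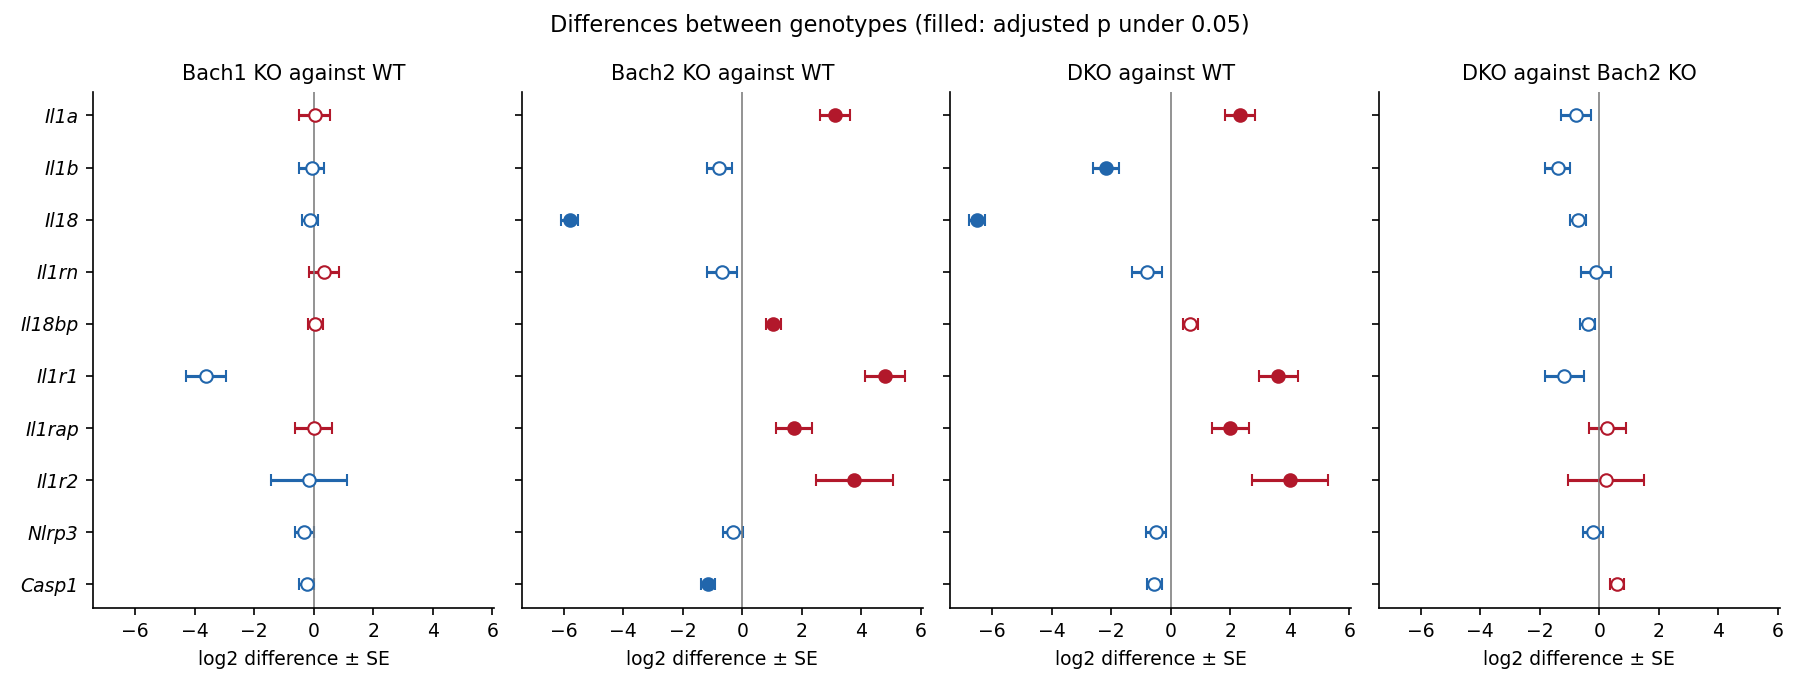
Log2 differences with standard errors (whiskers) for the 10 genes in 4 comparisons, each from the fit over all 12 arrays. Genes run from ligands at the top to inflammasome genes at the bottom, and filled points passed an adjusted p under 0.05. In Bach2 KO and DKO against WT, Il1a and the 3 receptor genes lie to the right and Il18 to the left, and in DKO against Bach2 KO no point is filled.

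Of the 2 inflammasome genes, Casp1 passed in Bach2 KO and Nlrp3 in neither genotype lacking Bach2. Casp1, which encodes the protease that matures IL-1β and IL-18, read 5.67, 5.13 and 5.93 in Bach1 KO, 4.75, 4.90 and 4.36 in Bach2 KO, 5.04, 5.24 and 5.53 in DKO, and 5.98, 5.59 and 5.88 in WT. Both Bach2 KO and DKO mice lay below all WT mice. Casp1 fell in Bach2 KO by 1.15 on the log2 scale (SE 0.25, 2.21-fold, adjusted p = 0.00453), and in DKO the difference was -0.55 ± 0.25 (adjusted p = 0.121). The size in Bach2 KO depended on the scaling, being -0.43 with quantile normalization (adjusted p = 0.0309) and -0.46 without scaling between arrays (adjusted p = 0.0721). Nlrp3, the sensor gene, was dim: its means were -4.40 in Bach1 KO, -4.40 in Bach2 KO, -4.60 in DKO and -4.09 in WT, with the probe above background on 2, 2, 3 and 3 arrays. Its differences from WT were -0.31 ± 0.34 in each single mutant and -0.51 ± 0.34 in DKO, and none passed (lowest adjusted p = 0.275). A second Nlrp3 probe was above background on 2 of 3 arrays in every genotype and was not tested.

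Removing Bach1 in addition to Bach2 gave no call among the 10 genes. In DKO against Bach2 KO, 0 of the 10 passed limma's test, beside 3.56% of all genes, and 3 (Il1b, Il18 and Casp1) had an unadjusted p under 0.05, beside 21.3%. In 6 of the 10 the DKO and Bach2 KO mice did not overlap, beside 35.2% of all genes. Of these 6, Casp1 was the 1 gene that was higher in DKO (0.60 ± 0.25, unadjusted p = 0.0332, adjusted p = 0.194). The other 5 of the 6, Il1a, Il1b, Il1r1, Il18 and Il18bp, were lower in DKO, with -0.39 ± 0.25 for Il18bp (adjusted p = 0.401). Il1r2 and Il1rap differed by 0.23 ± 1.28 and 0.26 ± 0.62. With the Bach2 KO and DKO arrays fitted alone, Il1r1 passed (adjusted p = 0.0284). In DKO against Bach1 KO, 4 of the 10 (Il1a, Il1r1, Il1r2 and Il1rap) rose and 2 (Il18 and Il1b) fell, beside 10.9% higher and 15.3% lower among all genes (26.1% in all). Of these, Il1r2 (adjusted p = 0.0331) and Il1rap (adjusted p = 0.0342) did not pass without any single DKO mouse, without Bach1 KO replicate 1 or without Bach1 KO replicate 3 (adjusted p of 0.0645 to 0.129), and Il1rap did not pass without Bach1 KO replicate 2 either (adjusted p = 0.0503).

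The scaling between arrays changed the differences. The median difference over all genes in Bach2 KO against WT was -0.30 with the 75th percentile, -0.15 with quantile normalization and 0.39 without scaling. Il1a, Il1r1, Il1r2, Il1rap and Il18bp kept positive differences, and Il18 and Casp1 negative ones, under these 3 scalings. Of the called genes in Bach2 KO against WT, 33.5% were higher with the 75th percentile, 44.7% with quantile normalization and 68.8% without scaling. In DKO against WT the share was 38.9% with the 75th percentile and 63% without scaling.

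Across the 12 arrays, the named genes whose values followed Il18 most closely were Kazald1, Grb7 and Cd101 (Pearson r = 0.996 each). For Il1r1 they were Eif4e3 (0.994), Hpse (0.986) and Ank (0.981), for Il1a they were Hnrnpk (0.991), Rcn2 (0.989) and Ahcyl1 (0.986), and for Casp1 they included Myl6 (0.991) and Rpl29 (0.986). For Il1b the values were lower, with Wtip (0.952), Bdh1 (0.949) and Pnp2 (0.947). For Il1rn, Vsir was the closest (0.947), for Il1rap it was Zswim4 (0.969), for Il1r2 Lats1 (0.960), and for Il18bp Rnf128 (0.959). Among the 10 genes themselves, Il18 correlated at -0.89 with Il1a and -0.88 with Il1r1. These coefficients describe 12 points that fall into 2 sets, with and without Bach2, and that share their scaling.

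The wider pathway was read from 50 further genes in 4 groups, of which 43 were kept by the background filter. Among those not kept, Nlrp6 had no named probe, and Il36rn was not matched to a gene name and so was not looked up. In Bach2 KO against WT, 13 rose, 9 fell and 21 did not pass, and in DKO against WT 11 rose, 8 fell and 24 did not pass, with medians of 0.03 and -0.04. The shares over all genes given above were 12.4% higher and 24.7% lower in Bach2 KO, and 10.6% higher and 16.6% lower in DKO. In Bach1 KO against WT 0 of the 43 passed, beside 0.0606% of all genes, and in DKO against Bach2 KO 2 fell, beside 3.56% called in either direction.

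Of 7 receptor genes for the related cytokines 5 passed the filter. Of these, 5 rose in Bach2 KO and 4 in DKO, beside 12.4% and 10.6% of all genes. Il1rl1, the IL-33 receptor gene, read 0.09, 0.40 and -0.75 in Bach2 KO and 0.67, -0.33 and -0.58 in DKO, and it was above background on 0 of 3 WT arrays. It was at least 61.2-fold higher in Bach2 KO (adjusted p = 1.71e-06) and at least 61.6-fold higher in DKO (adjusted p = 1.06e-06), counted against the lowest signal called well above background on each WT array. Il18r1, the ligand-binding chain of the IL-18 receptor, was likewise above background on 0 WT arrays and was at least 26.8-fold higher in Bach2 KO (adjusted p = 4.37e-05) and at least 2.28-fold higher in DKO (adjusted p = 0.0139). It read -4.12, -5.98 and -4.40 in DKO and -1.07, -1.59 and -1.17 in Bach2 KO, and this difference between the 2 mutants passed (-3.55 ± 0.65, adjusted p = 0.0132). Il18rap, the IL-18 receptor accessory chain, was at least 7.15-fold higher in Bach2 KO and at least 3.51-fold higher in DKO, and Il1rl2, the IL-36 receptor gene, at least 5.08-fold and 3.48-fold (adjusted p = 0.00579, 0.027, 0.00324 and 0.00971). Both were also above background on 2 of 3 Bach1 KO arrays, where Il18rap averaged -4.34 ± 2.40 and Il1rl2 -5.25 ± 1.59. DKO did not pass against Bach1 KO for either (0.13 ± 0.99, adjusted p = 0.935, and 1.02 ± 0.72, adjusted p = 0.315). These 4 genes passed the background filter only through genotypes lacking Bach2, so a difference from WT was to some extent fixed by the filter. Il18r1 and Il18rap passed it only through Bach2 KO, so their direction in DKO against Bach2 KO was also to some extent fixed.

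Of 6 further ligand genes 2 passed the filter, and Il36rn was not looked up. Il33, an alarmin gene, averaged -4.68 ± 1.89 in Bach1 KO, -4.32 ± 0.84 in Bach2 KO, -5.00 ± 1.38 in DKO and -2.29 ± 0.39 in WT, and it fell in DKO (-2.71 ± 0.89, adjusted p = 0.0424) with 2 of 3 DKO arrays above background. The differences from WT of -2.39 ± 0.89 in Bach1 KO (adjusted p = 0.741) and -2.03 ± 0.89 in Bach2 KO (adjusted p = 0.0967) did not pass, nor did DKO against Bach1 KO (-0.33 ± 0.89, adjusted p = 0.814). Il33 passed the background filter only through WT, where it is high, so its direction against WT was to some extent fixed by the filter. Il36g passed in neither comparison with WT (adjusted p = 0.374 and 0.293).

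Of 22 further inflammasome genes on the array, 6 rose and 7 fell in Bach2 KO, and 5 rose and 5 fell in DKO. The shares over all genes were 12.4% higher and 24.7% lower in Bach2 KO, and 10.6% and 16.6% in DKO. Mefv encodes the sensor pyrin. It was above background on 0 of 3 WT arrays and read -0.32, -0.23 and -0.22 in Bach2 KO and 1.37, 0.11 and 1.38 in DKO, at least 51.9-fold above WT in Bach2 KO (adjusted p = 2.58e-06) and at least 119.9-fold in DKO (adjusted p = 3.93e-07). Gsdme, a pore-forming gasdermin gene, read 0.91, 1.22 and 1.42 in Bach2 KO, 1.73, 1.53 and 2.09 in DKO, and -7.74, -3.40 and -6.49 in WT, with 1 of 3 WT arrays above background. It rose by a fitted 7.06 ± 1.21 in Bach2 KO (adjusted p = 0.00114) and 7.66 ± 1.21 in DKO (adjusted p = 0.000649), sizes that rest on WT values at background. Mefv and Gsdme also passed the background filter only through Bach2 KO and DKO, which to some extent fixed the direction. Nlrp1a, another sensor gene, rose by 1.98 ± 0.29 and 1.74 ± 0.29, and Ninj1, whose product ruptures the membrane of dying cells, by 1.75 ± 0.37 and 2.16 ± 0.37. Pycard, which encodes the adaptor ASC, and Gsdmd, the gasdermin cut by caspase-1, were singled out after their values were seen. They fell in Bach2 KO (-0.90 ± 0.32, adjusted p = 0.0426, and -1.19 ± 0.36, adjusted p = 0.0221) and did not pass in DKO (adjusted p = 0.418 and 0.0621). Naip1, a sensor of bacterial secretion proteins that was named for the same reason, was lower in DKO than in Bach2 KO (-2.81 ± 0.61, adjusted p = 0.0288).

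Of 14 genes of the MYD88 relay, 2 rose and 2 fell in each of the 2 comparisons with WT, beside 37.1% of all genes called in Bach2 KO and 27.2% in DKO. Traf6, the ubiquitin ligase that carries the signal onward, rose by 1.9995 ± 0.46 in Bach2 KO and 1.70 ± 0.46 in DKO, and the kinase gene Irak2 by 0.96 ± 0.21 and 0.80 ± 0.21. The kinase gene Irak1 fell, with -1.43 ± 0.29 in Bach2 KO and -1.31 ± 0.29 in DKO, as did Peli1, a ubiquitin ligase gene of the same relay, with -2.11 ± 0.30 and -1.74 ± 0.30. Adjusted p for these 4 genes lay between 0.000308 and 0.0166.

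**Figure D3:**
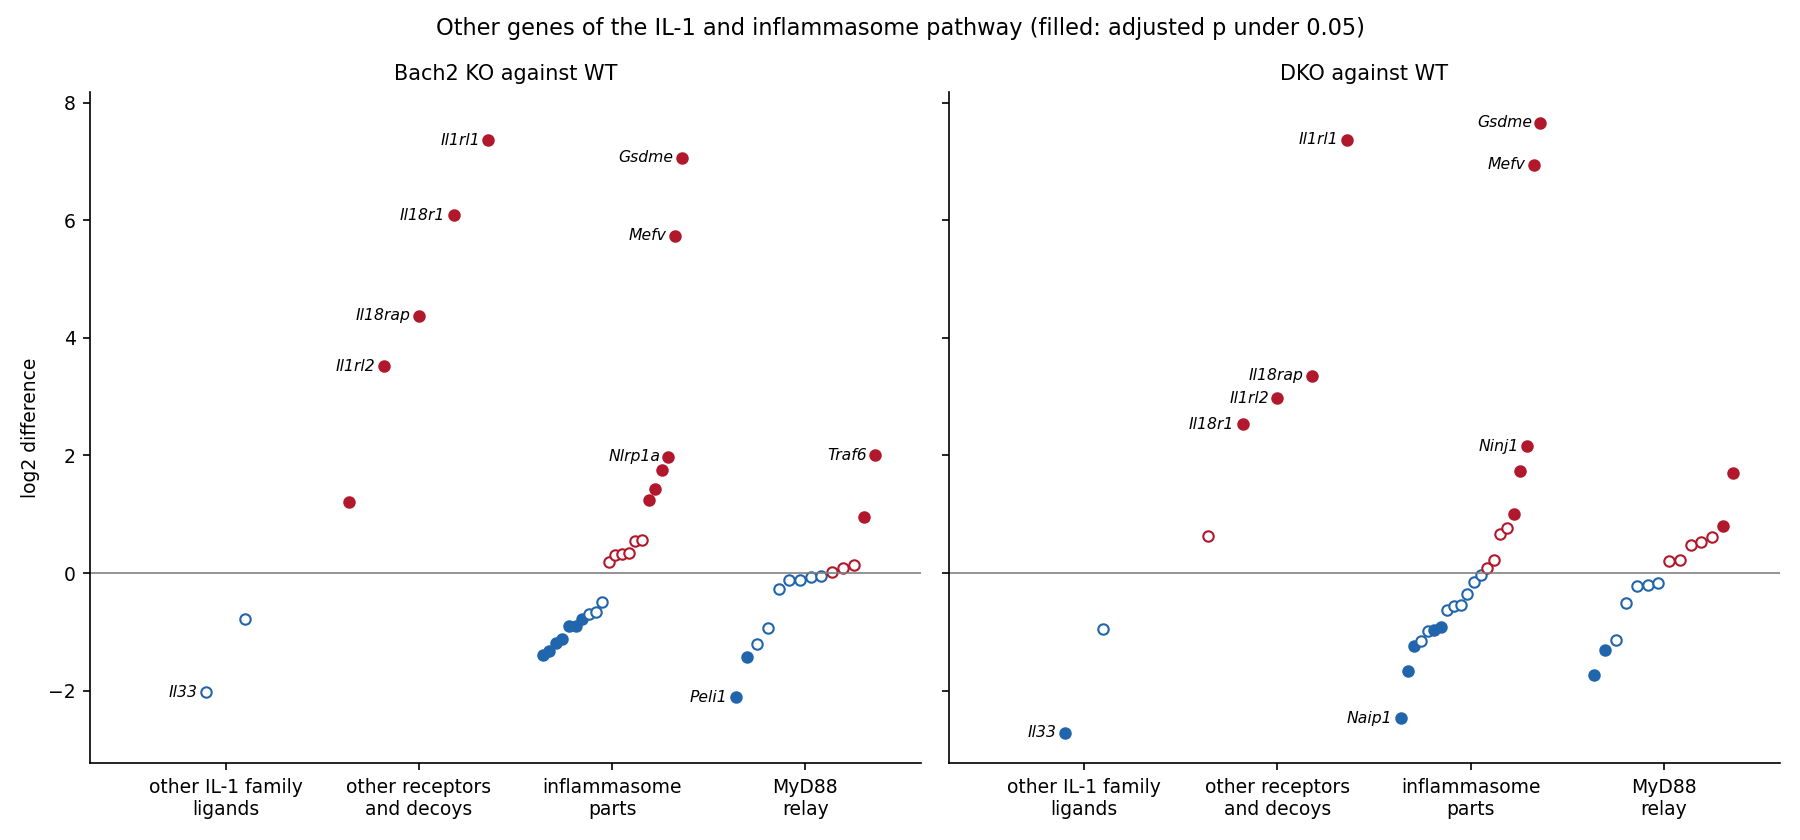
Log2 differences from WT of the 43 further pathway genes that passed the background filter, 1 point per gene, ordered by size within each of 4 groups. The left panel shows Bach2 KO and the right panel DKO, and filled points passed an adjusted p under 0.05. Receptor genes lie above 0 in both panels, while the inflammasome and MYD88 relay genes lie on both sides.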

How the data were processed

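RNA of sorted alveolar macrophages from 12 mice, 3 in each of 4 genotypes, was measured on single-colour Agilent arrays. The deposited scanner files hold an intensity per spot that, per the file headers, Agilent Feature Extraction had background-subtracted. The headers give version 10.7.3.1 and the submitters' processing notes give version 9.1. Signals were not normalized between arrays. The authors' series matrix holds log2 values centred on each probe's median for 20850 probes. That scale and centring were established from the values, which correlated at 0.999 with the scanner signals treated in the same way, and the direction followed from the same match. It holds 8 of the 10 genes, and its column medians run from -0.25 to 0.25. The sources used here do not give how it was made, so it served as an alternative.

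Each array's 75th percentile of non-control spots was subtracted on the log2 scale, outlier spots were left out (136 to 733 on an array) and repeated spots were averaged. A probe was kept if every one of the 3 arrays of some genotype showed it well above background (30878 of 55681). RefSeq (GRCm38.p6) gave 1 gene for the accessions of 26413 probes, and the remaining 29268 entered as unnamed transcripts. The brightest probe was taken for a gene with a minimum of 2 values in each genotype, leaving 23118 genes or transcripts. No genome of the array's build was used. Gene positions on that build are not reported here.

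Genotype means were fitted over all 12 arrays with limma 3.58.1 in R 4.3.3 with data.table (version 1.17.8), with lmFit, eBayes with a trend and 8 residual degrees of freedom. Adjusted p-values are Benjamini-Hochberg values over all genes of a comparison, and a gene passed under 0.05. In text, ± is SD for a group mean and SE for a difference. The number of arrays limits the precision. Array pairs with identical values numbered 0. Same-numbered deviations from the group means correlated at 0.116 to 0.123 for the 3 Bach2 KO and DKO pairs, all over 0.1, which did not hold for other pairs of genotypes. Bach1 and Bach2 came from a fit of all probes.

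A gene above background on 0 arrays of a group has a bound, with its values there raised to at least the lowest signal called well above background on each array. All 10 genes are named. Up to 4 genes per pathway list were named by the smallest p against WT, and the text gives some of the 3 genes with the highest correlation to a member, of which 1 is not reported here. The 10 genes, the pathway and marker lists and the tests were chosen with earlier results of these data known. Alternatives were other scalings, normexp background correction with an offset of 50, other probe filters, the mean of a gene's probes, outlier spots kept, eBayes without a trend, the compared groups alone, the series matrix, slide as a block or slide 1 alone, a replicate block and leaving out each array. Leaving out at once the third replicates of WT and Bach1 KO, reading every probe on its own and the second Il1rap probe were chosen after seeing the data. The method was tested on simulated data.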

Additional observations from a re-analysis of the deposited data

Results flagged for a closer look

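A second probe of Il1rap, which is named through another transcript accession and is dimmer than the probe used for the gene, held a signal that the comparisons above do not use. It averaged -7.32 ± 0.90 in Bach1 KO, -3.47 ± 1.03 in Bach2 KO, -3.73 ± 0.09 in DKO and -7.04 ± 0.75 in WT (SD, n = 3 each). The probe was well above background on 0 of 3 Bach1 KO arrays, 2 of 3 Bach2 KO arrays, 3 of 3 DKO arrays and 0 of 3 WT arrays. The probe passed the background filter only through DKO, where it is high, so its direction against WT was to some extent fixed by the filter. Counted against the lowest signal called well above background on each WT array, it was at least 5.85-fold higher in Bach2 KO (limma fit over every probe, adjusted p = 0.00114) and at least 4.89-fold higher in DKO (adjusted p = 0.00191) than in WT. DKO was at least 3.92-fold above Bach1 KO (adjusted p = 0.00117). DKO and Bach2 KO differed by -0.26 ± 0.60 (adjusted p = 0.861). This probe was read on its own after the data had been seen.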

How the results depend on the processing

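Over the results for single genes, 796 values under an alternative kept their direction and their side of the threshold, 48 no longer passed, 7 newly passed and 10 turned their sign. In Bach2 KO and in DKO against WT, Il1a, Il1r1 and Il18 passed under every alternative that gave them a value, as did Il18bp in Bach2 KO and Il1b in DKO. Il1r2 and Il1rap did not: with the replicate block Il1r2 had an adjusted p of 0.058 in Bach2 KO and 0.0586 in DKO against WT and 0.0533 in DKO against Bach1 KO, and Il1rap in Bach2 KO against WT had 0.0506 with quantile normalization, 0.0588 with array median scaling and 0.0628 with no filter. With the replicate block, 6 of the 10 genes passed in Bach2 KO against WT, 5 in DKO against WT and 5 in DKO against Bach1 KO. Correlations of same-number deviations ran from -0.143 to 0.385 and 6 of 18 were over 0.1, among them all 3 of Bach2 KO with DKO, and 6 of 12 arrays correlated best with their own number. In DKO against Bach2 KO the block called 748 genes in place of 824 and 0 of the 10 either way.

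The turned signs were all of differences that did not pass. In Bach2 KO against WT without scaling, Il1rn was 0.021 and Nlrp3 0.38, and with the series matrix Nlrp3 was 0.067. In DKO against WT, Nlrp3 was 0.26 with the series matrix. In DKO against Bach2 KO, Il1r2 was -0.019 without scaling, Nlrp3 was 0.18 with normexp and 0.20 with the series matrix, Il1rap ran from -0.0054 (without Bach2 KO replicate 1) to 0.41 and Il1rn from -0.41 to 0.19 when single arrays were left out, Il1rn being above 0 without Bach2 KO replicate 3 or DKO replicate 1. The cause was not tested.

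Among all genes, the 14 called in Bach1 KO against WT became 27 with quantile normalization, 7 with a filter on all 12 arrays, 6 with the series matrix, 2 with the compared groups alone, 4 on slide 1 alone and 29 without WT replicate 3 and Bach1 KO replicate 3, and leaving out single arrays gave 7 to 86. In Bach2 KO against WT, 8581 became 4930 on slide 1 alone, which holds fewer arrays. In DKO against Bach2 KO, 824 became 1349 with quantile normalization, 1285 with the series matrix, 1883 with the compared groups alone and 1383 without WT replicate 3 and Bach1 KO replicate 3. In the same comparison, leaving out single arrays gave 293 to 564, and 1 of the 10 genes, Il1r1, passed with the compared groups alone. For the departure of DKO from the sum of the single mutants, 156 became 90 with the filter on all 12 arrays, 72 with the series matrix and 242 without both arrays, and leaving out single arrays gave 75 to 265. Of the 10 genes, 0 to 1 passed there and in Bach1 KO against WT when single arrays were left out. The shares of higher calls without scaling were 41.2% in Bach1 KO against WT (28.6% with the 75th percentile), 20.3% in DKO against Bach2 KO (40.7%), 57.6% in DKO against Bach1 KO (41.5%) and 3.09% for the departure (15.4%, and 36.4% with normexp). Values near background, as for Il1r2, Nlrp3 and Il1r1 in Bach1 KO, limit what the arrays can show.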

Other observations

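The marker lists of other cell types gave these summed linear levels. For the counts of called markers, the shares over all genes were 12.4% higher and 24.7% lower in Bach2 KO. In DKO they were 10.6% and 16.6%. The sum of 8 T cell markers was 79.3 to 101 in Bach1 KO, 36.7 to 44.5 in Bach2 KO, 39.6 to 57.5 in DKO and 78.3 to 147 in WT. Of the 7 that passed the background filter, 4 rose and 1 fell in both Bach2 KO and DKO against WT (median differences 3.41 and 4.50). Among them Cd3d, Cd3g and Il7r passed it only through these 2 mutants, which to some extent fixed their direction and these medians. Cd2 averaged 3.45 in Bach2 KO and 2.42 in DKO, against 6.70 in WT, while Il7r averaged 4.69 and 5.18, against -6.94. Of the CD3 chain genes, Cd3d and Cd3g were above background on all 3 Bach2 KO and all 3 DKO arrays. On WT arrays they were above it on 0 (Cd3d) and 1 (Cd3g) of 3. Cd3e was above background on all 3 arrays of every genotype. It averaged -1.56 in Bach2 KO and -1.64 in DKO, against -1.23 in WT. Cd4 averaged 0.76 in Bach2 KO and -0.43 in DKO, against 0.08 in WT. The sum of 6 epithelial markers was 9.46 to 11.9 in Bach1 KO, 20.5 to 23.2 in Bach2 KO, 19.5 to 23.8 in DKO and 13.03 to 15.5 in WT. Of the 4 that passed the filter, 1 rose and 2 fell in Bach2 KO (median -1.35) and 1 rose and 1 fell in DKO (median -1.47). Cdh1 averaged 4.40 in Bach2 KO and 4.32 in DKO, against 2.13 in WT, while Epcam averaged -1.95 and -3.56, against 2.78. The sum of 5 B cell markers was 0.0894 to 0.543 in Bach1 KO, 0.370 to 0.567 in Bach2 KO, 0.331 to 0.430 in DKO and 0.106 to 0.194 in WT. Of the 2 that passed the filter, 1 rose and 0 fell in both Bach2 KO and DKO against WT. Cd79b averaged -1.70 in Bach2 KO and -1.72 in DKO, against -6.99 in WT. It passed the filter only through these 2 mutants, which to some extent fixed its direction. Eosinophil sums did not exceed 0.0649 on any array. The dendritic cell growth factor receptor gene Flt3 averaged 1.26 in Bach2 KO and 0.54 in DKO, against -3.76 in WT. Zbtb46, a transcription factor gene of conventional dendritic cells, averaged -3.15 in Bach2 KO and -3.26 in DKO, against -2.89 in WT. F13a1, a monocyte and macrophage gene, averaged 1.81 in Bach2 KO and 3.59 in DKO, and it was above background on 0 of 3 WT arrays.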
